A study of Mus musculus with 3 samples.

Results

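The erythroid barcodes of mouse pancreas, that is cell barcodes whose RNA was rich in adult haemoglobin transcripts, were described in 3 single-cell RNA libraries. A barcode was a member if at least 10% of its UMIs (unique molecular identifiers, each standing for 1 captured RNA molecule) came from Hba-a1, Hba-a2, Hbb-bs and Hbb-bt together. Only barcodes with at least 500 UMIs and at most 20% mitochondrial UMIs were considered, with no minimum of genes. These values found 239 erythroid barcodes among 40253 kept barcodes. The members were chosen by the measured levels of these 4 globin genes, so those levels are given below as a description, with no test.

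The diabetic exercise group was treadmill-trained, and the series text names male db/db mice, 6 weeks old, as the trained animals. These mice carry a leptin receptor mutation that leads to obesity and diabetes. The diabetic sedentary group was labelled diabetic and sedentary. The remaining group had the treatment label none and was also sedentary; its genotype and age were not stated, nor were those of the diabetic sedentary mice beyond the label. Each group was 1 library of dissociated pancreas made with the 10x 3-prime kit, and the number of mice in a library is not stated. No comparison between groups therefore has a replicate check, and all intervals below cover counting error only. Anything that set 1 library apart, handling included, cannot be told apart from the treatment.

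Red cells carry oxygen on haemoglobin, a tetramer of a pair of alpha and a pair of beta chains around haem. Reticulocytes, the youngest red cells in blood, have lost their nucleus and no longer make RNA, but still hold globin and other messages that decay as the cell matures. In a dissociated solid organ such cells come from blood in the vessels. Most of the RNA of the pancreas belongs to acinar cells, which make digestive enzymes, and acinar RNA set free in dissociation can be captured with any cell.

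The 4 globin genes form an alpha pair and a beta pair of adult mouse genes, and their promoters are shown because the globin mix is the main measure here. Hba-a1 (ENSMUSG00000069919) lies on chromosome 11 at 32283511 to 32284465 and Hba-a2 (ENSMUSG00000069917) at 32296489 to 32297298, both on the plus strand in the GENCODE M21 annotation of GRCm38. Hbb-bs (ENSMUSG00000052305) lies on chromosome 7 at 103826534 to 103828096 and Hbb-bt (ENSMUSG00000073940) at 103812524 to 103813996, both on the minus strand. The promoter windows below are from RefSeq, build GRCm38.p6, 250 bases before to 50 bases after the annotated start, each written 5′ to 3′ on its gene's own strand. Capitals mark 4 short motifs searched on both strands, the TATA box (letters TATAAA), the CCAAT box (letters CCAAT), the CACCC box (letters CACCC) and the GATA motif (letters GATAA).
Hba-a1, chr11:32283422-32283721, plus strand: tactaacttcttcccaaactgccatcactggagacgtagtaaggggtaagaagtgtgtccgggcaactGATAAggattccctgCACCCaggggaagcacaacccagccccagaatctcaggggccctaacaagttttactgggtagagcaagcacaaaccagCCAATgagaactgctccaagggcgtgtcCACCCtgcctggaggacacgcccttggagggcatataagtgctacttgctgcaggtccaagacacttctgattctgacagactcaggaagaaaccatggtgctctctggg
Hba-a2, chr11:32296242-32296541, plus strand: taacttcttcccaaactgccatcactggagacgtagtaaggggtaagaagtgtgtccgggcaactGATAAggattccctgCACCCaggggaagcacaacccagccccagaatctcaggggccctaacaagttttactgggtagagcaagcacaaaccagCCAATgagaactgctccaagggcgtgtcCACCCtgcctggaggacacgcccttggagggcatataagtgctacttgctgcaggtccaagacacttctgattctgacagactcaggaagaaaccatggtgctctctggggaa
Hbb-bs, chr7:103827879-103828178, minus strand: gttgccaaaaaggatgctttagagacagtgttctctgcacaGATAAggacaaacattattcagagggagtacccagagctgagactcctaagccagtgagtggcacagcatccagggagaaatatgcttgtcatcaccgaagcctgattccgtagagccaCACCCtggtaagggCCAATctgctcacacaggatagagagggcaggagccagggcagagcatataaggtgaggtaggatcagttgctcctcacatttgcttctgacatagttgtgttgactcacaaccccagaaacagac
Hbb-bt, chr7:103813874-103814173, minus strand: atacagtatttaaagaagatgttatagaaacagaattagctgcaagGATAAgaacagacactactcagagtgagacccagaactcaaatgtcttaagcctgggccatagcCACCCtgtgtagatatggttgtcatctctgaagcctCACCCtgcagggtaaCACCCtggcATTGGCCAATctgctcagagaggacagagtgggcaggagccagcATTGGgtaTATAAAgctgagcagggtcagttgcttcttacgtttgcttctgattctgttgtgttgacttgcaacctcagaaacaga

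All 4 windows held a CCAAT box, a CACCC box and a GATA motif, and of the 4 only Hbb-bt held the TATA box as spelled. No motif overlapped another in these windows. These letters are common: of 32851 mouse promoter windows of this length, 37.4% held a CCAAT box, 57.5% a CACCC box, 25.4% a GATA motif and 13.6% a TATA box. The alpha windows were identical at 98.0% of aligned positions, and the beta windows at 72.4%. The last 300 bases of the longest coding transcripts, the end that a 3-prime library reads, were identical at 89.6% between Hba-a1 and Hba-a2 and at 86.1% between Hbb-bs and Hbb-bt. The split of reads between the members of each pair is therefore uncertain. Reads misassigned within a pair do not change its sum. Whether reads that match both members were left uncounted, and so changed the sums of the pairs, was not tested.

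Erythroid barcodes numbered 88 of 17845 kept barcodes in diabetic exercise (0.493%, exact binomial 95% interval 0.396 to 0.607), 95 of 12458 in diabetic sedentary (0.763%, 0.617 to 0.931) and 56 of 9950 in none (0.563%, 0.425 to 0.730). The share in diabetic exercise was 0.647 times that in diabetic sedentary (0.478 to 0.873), and that in diabetic sedentary was 1.35 times that in none (0.964 to 1.92). The first ratio depended on the total it was taken over. Among kept barcodes with under 50% acinar UMIs, the share was 4.29% in diabetic exercise (71 of 1656), 3.73% in diabetic sedentary (78 of 2090) and 2.88% in none (23 of 799). There the ratio of exercise to diabetic sedentary was 1.15. It is given without an interval, so no reversal is claimed. Few barcodes lay near the threshold: those with 10 to 11% globin numbered 0 in diabetic exercise, 0 in diabetic sedentary and 4 in none, and those with 9 to 10% numbered 3 in diabetic exercise, 0 in diabetic sedentary and 2 in none. Of all globin UMIs of the kept barcodes, the members took 94.0% in diabetic exercise, 95.7% in diabetic sedentary and 94.3% in none.

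Library totals were 45209034 UMIs in diabetic exercise, 80185752 UMIs in diabetic sedentary and 54128454 UMIs in none. The median UMIs of erythroid barcodes, against those of the other kept barcodes, were 2012 against 1902 in diabetic exercise, 3019 against 4782 in diabetic sedentary and 2714 against 3961.5 in none. Their median genes were 181.5 against 257 in diabetic exercise, 197 against 467 in diabetic sedentary and 230 against 414 in none. Mitochondrial genes took a median of 5.66% against 6.82% in diabetic exercise, 3.01% against 2.14% in diabetic sedentary and 0.746% against 0.708% in none. Between pairs of libraries 32 to 61 barcode sequences were shared, and 0 were erythroid in both. The rate of doublets was not estimated.

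Most of the RNA in an erythroid barcode was globin or acinar RNA. Globin took a median of 49.5% of UMIs in diabetic exercise (range 13.4 to 88.9%), 59.9% in diabetic sedentary (11.3 to 79.7%) and 31.5% in none (10.3 to 60.0%). Barcodes with at least 50% globin numbered 44 of 88 in diabetic exercise, 59 of 95 in diabetic sedentary and 6 of 56 in none. The list of 46 acinar genes took a median of 34.4% in diabetic exercise (5.46 to 63.4%), 27.0% in diabetic sedentary (8.07 to 77.2%) and 55.9% in none (29.8 to 77.7%). The ranges of all groups overlapped, and the none library had the lowest median of globin and the highest of acinar RNA. Of all UMIs of erythroid barcodes, against those of the other barcodes, acinar genes made up 29.3% against 67.0% in diabetic exercise, 32.2% against 77.7% in diabetic sedentary and 55.6% against 80.7% in none. Between diabetic exercise and diabetic sedentary the summed share and the median over barcodes thus differed in opposite directions.

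**Figure D1:**
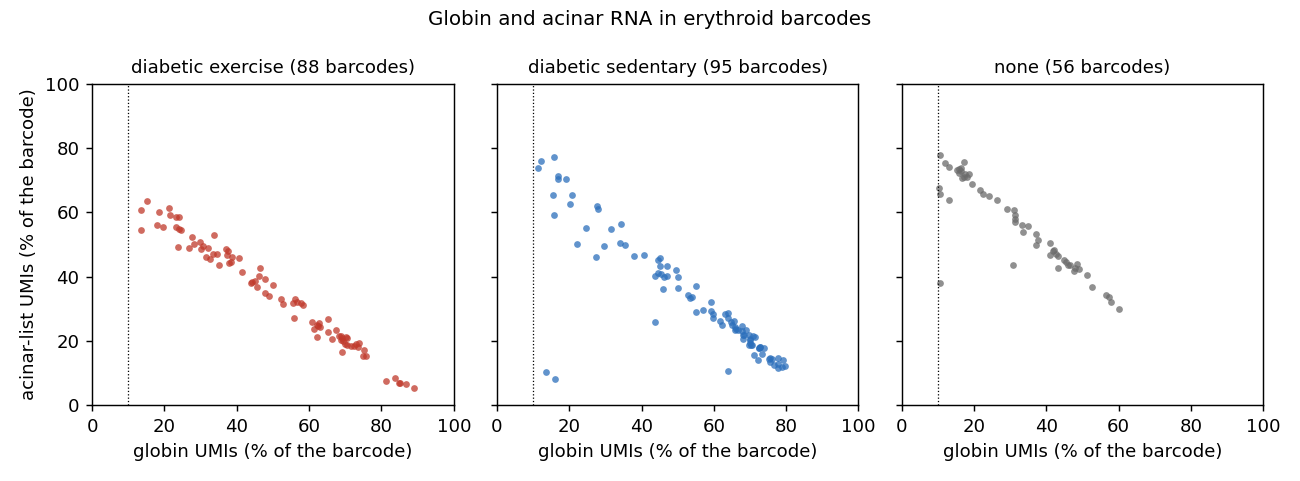
Each point is 1 erythroid barcode, with the percentage of its UMIs from 4 globin genes on the x axis and from the acinar gene list on the y axis, in 1 panel per group. Most points fall along a descending line. The farthest below it are 2 diabetic sedentary barcodes, at 13.5% globin with 10.4% acinar and 16.0% globin with 8.07% acinar. A none barcode at 10.6% globin with 37.9% acinar also lies well below the line. The none barcodes stay at or below 60.0% globin, while the highest in diabetic exercise reaches 88.9%. The dotted line is the 10% threshold.

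The acinar RNA in erythroid barcodes had nearly the gene mix of the other barcodes of the same library. Ctrb1, a chymotrypsinogen, as a share of acinar UMIs in erythroid against other barcodes, was 19.5% against 18.8% in diabetic exercise, 19.9% against 18.9% in diabetic sedentary and 14.8% against 13.1% in none. Try5, a trypsinogen, was 5.68% against 5.27% in diabetic exercise, 7.84% against 7.47% in diabetic sedentary and 1.74% against 1.93% in none. The difference in Try5 between libraries was thus seen in erythroid barcodes and in the others alike. Reg2, which encodes a secreted acinar protein, was 0.392% against 0.369% in diabetic exercise, 0.931% against 0.936% in diabetic sedentary and 0.162% against 0.0714% in none. In the none library the Reg2 share was thus higher in erythroid barcodes than in the others, on 161 UMIs.

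Alpha-globin made up more of the globin RNA in the diabetic exercise library. Hba-a1 and Hba-a2 together held 40.3% of globin UMIs in diabetic exercise, 29.7% in diabetic sedentary and 30.8% in none, out of 132034 globin UMIs in diabetic exercise, 171004 globin UMIs in diabetic sedentary and 57880 globin UMIs in none. The difference was 10.6 percentage points (10.3 to 10.97) between diabetic exercise and diabetic sedentary, and -1.17 points (-1.61 to -0.74) between diabetic sedentary and none. These intervals treat each UMI as independent and leave out the spread between barcodes, which is given next. Single barcodes showed the same: their median alpha share was 41.4% in diabetic exercise (quartiles 38.2 and 46.8%), 30.1% in diabetic sedentary (27.5 and 32.2%) and 30.6% in none (29.0 and 35.2%). Alpha was at least 40% of globin in 55 of 88 barcodes in diabetic exercise, 10 of 95 in diabetic sedentary and 8 of 56 in none. The groups overlapped at both ends, with single barcodes from 26.9 to 73.9% in diabetic exercise, 15.1 to 61.5% in diabetic sedentary and 23.4 to 63.2% in none.

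The alpha share was also set out in strata of total globin. In barcodes with 50 to 70% globin, alpha was a median of 39.6% in diabetic exercise (27 barcodes), 30.2% in diabetic sedentary (36) and 29.4% in none (6). With 30 to 50% globin it was 44.8% (26 barcodes) in diabetic exercise, 28.9% (18) in diabetic sedentary and 30.4% (26) in none. With 10 to 20% globin it was 53.8% (6 barcodes) in diabetic exercise, 32.6% (10) in diabetic sedentary and 35.5% (19) in none. The median was highest in diabetic exercise in each of the 5 strata, the topmost of which held no barcode of none. The sparse globin UMIs of the other kept barcodes differed between libraries in the same direction, with alpha at 44.7% in diabetic exercise, 31.4% in diabetic sedentary and 37.0% in none.

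Within the alpha pair, Hba-a2 held 43.6% in diabetic exercise, 42.6% in diabetic sedentary and 42.7% in none. Within the beta pair, Hbb-bt held 12.04% in diabetic exercise, 14.3% in diabetic sedentary and 11.9% in none. The Hbb-bt share spread widely over single barcodes: it ran from 0 to 20% in diabetic exercise, from 0 to 22.3% in diabetic sedentary and from 0.671 to 25.4% in none. Its median was 5.58% in diabetic exercise, 11.7% in diabetic sedentary and 10.9% in none.

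**Figure D2:**
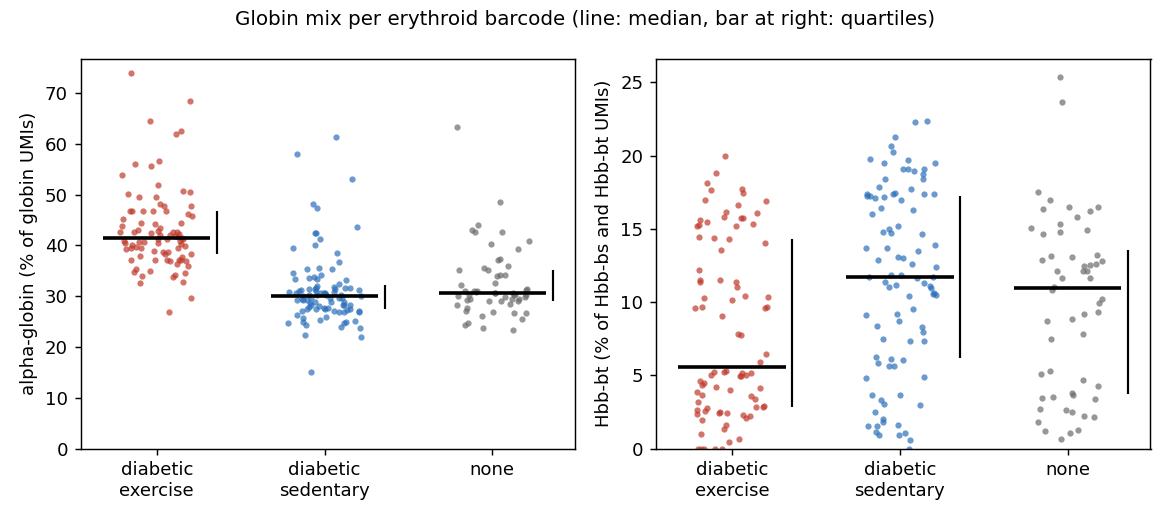
Each point is 1 erythroid barcode, by group; the left panel gives alpha-globin as a percentage of globin UMIs and the right panel gives Hbb-bt as a percentage of Hbb-bs and Hbb-bt UMIs, with horizontal lines at medians and bars from the lower to the upper quartile. Medians of the alpha share are 41.4%, 30.1% and 30.6%, and the Hbb-bt share spreads from near 0 to over 20% in the diabetic sedentary and none groups.

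Alas2, Bpgm and Mkrn1 are transcripts known from late red cells. Alas2 (ENSMUSG00000025270, chromosome X, 150547375 to 150570638) encodes the erythroid enzyme for the first step of haem synthesis. Bpgm (ENSMUSG00000038871, chromosome 6, 34476207 to 34505613) makes 2,3-bisphosphoglycerate, which lowers the oxygen affinity of haemoglobin. Mkrn1 (ENSMUSG00000029922, chromosome 6, 39397804 to 39420462) encodes a ubiquitin ligase.

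Alas2 stood at 1128 CPM (UMIs per 1000000 UMIs of the erythroid barcodes; Poisson 95% interval 995 to 1275) in diabetic exercise, 1637 (1500 to 1783) in diabetic sedentary and 1232 (1075 to 1406) in none, from 258, 527 and 220 UMIs. Bpgm stood at 411 CPM (332 to 503) in diabetic exercise, 1149 (1035 to 1273) in diabetic sedentary and 795 (670 to 937) in none, from 94, 370 and 142 UMIs. Mkrn1 stood at 429 CPM (348 to 522) in diabetic exercise, 929 (826 to 1040) in diabetic sedentary and 672 (557 to 804) in none, from 98, 299 and 120 UMIs. All 3 genes were lower in diabetic exercise than in diabetic sedentary, with ratios of 0.689 (0.592 to 0.801) for Alas2, 0.358 (0.282 to 0.450) for Bpgm and 0.461 (0.363 to 0.582) for Mkrn1. The direction held per globin UMI, where the ratios were 0.634, 0.329 and 0.424. On that scale 1.85% of 432 genes were at least 2-fold higher in diabetic exercise and 29.9% at least 2-fold lower. Between diabetic sedentary and none the direction turned with the scale: the ratios were 1.33 for Alas2, 1.44 for Bpgm and 1.38 for Mkrn1 in CPM, but 0.811, 0.882 and 0.843 per globin UMI. Globin took a larger part of all UMIs in diabetic sedentary than in none, as given above.

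Some barcodes had none of these transcripts at this depth. Alas2 was seen in 64 of 88 barcodes in diabetic exercise, 81 of 95 in diabetic sedentary and 43 of 56 in none. Bpgm was seen in 26 in diabetic exercise, 63 in diabetic sedentary and 32 in none, and Mkrn1 in 31 in diabetic exercise, 65 in diabetic sedentary and 29 in none. With every barcode thinned to 500 UMIs, the expected share with Alas2 was 33.8% in diabetic exercise, 50.4% in diabetic sedentary and 38.2% in none. For Bpgm it was 9.83% in diabetic exercise, 33.8% in diabetic sedentary and 24.4% in none. For Mkrn1 it was 11.7% in diabetic exercise, 29.9% in diabetic sedentary and 21.8% in none. In the other kept barcodes, of which the median depths are given above, Alas2 was seen in 0.0563% in diabetic exercise, 0.105% in diabetic sedentary and 0.0404% in none. There Bpgm was seen in 2.01% in diabetic exercise, 4.48% in diabetic sedentary and 2.87% in none, and Mkrn1 in 3.37% in diabetic exercise, 6.69% in diabetic sedentary and 5.56% in none. Bpgm and Mkrn1 were thus above this background in every library, and both had their lowest shares among erythroid barcodes in diabetic exercise. No UMI of the 3 genes was seen in 22 erythroid barcodes of diabetic exercise, 8 of diabetic sedentary and 12 of none.

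Barcodes with little Hbb-bt also had little Bpgm and Mkrn1. For this description, chosen after the values were seen, the barcodes of each library were divided into 3 near-equal sets, low, middle and high, by their Hbb-bt share. The low set held 0, 16 and 0 Bpgm UMIs in diabetic exercise, diabetic sedentary and none, on 14047, 28743 and 8035 globin UMIs. The high set held 77, 235 and 81 Bpgm UMIs, and per 10000 globin UMIs this was 9.51 (7.50 to 11.9) in diabetic exercise, 28.4 (24.8 to 32.2) in diabetic sedentary and 30.1 (23.9 to 37.4) in none. A count of 0 allows up to 2.14 and 3.73 per 10000 in the low sets of diabetic exercise and none. Mkrn1 had 2 UMIs in diabetic exercise, 23 UMIs in diabetic sedentary and 0 UMIs in none in the low set, and per 10000 globin UMIs 9.88 in diabetic exercise, 18.3 in diabetic sedentary and 21.6 in none in the high set. In the middle set Mkrn1 was 4.33 in diabetic exercise, 20.9 in diabetic sedentary and 27.0 in none. It was thus higher in the middle than in the high set in diabetic sedentary and none. Alas2 per 10000 globin UMIs, in the high against the low set, was 21.2 (18.2 to 24.7) against 15.7 (9.82 to 23.7) in diabetic exercise. It was 32.9 (29.1 to 37.1) against 30.3 (24.2 to 37.3) in diabetic sedentary and 44.6 (37.0 to 53.3) against 13.7 (6.83 to 24.5) in none. These intervals overlapped in diabetic exercise and in diabetic sedentary, and were apart only in none.

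The sets differed in other ways as well, and the part of these in the result was not tested. The median UMIs of the low against the high set were 1419 against 3630.5 in diabetic exercise, 2040 against 3855.5 in diabetic sedentary and 1973 against 3505 in none. The median acinar shares were 48.9% against 20.8% in diabetic exercise, 45.9% against 20.9% in diabetic sedentary and 67.7% against 45.3% in none. The median mitochondrial shares were 9.35% against 3.59% in diabetic exercise, 5.34% against 2.18% in diabetic sedentary and 0.999% against 0.583% in none.

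**Figure D3:**
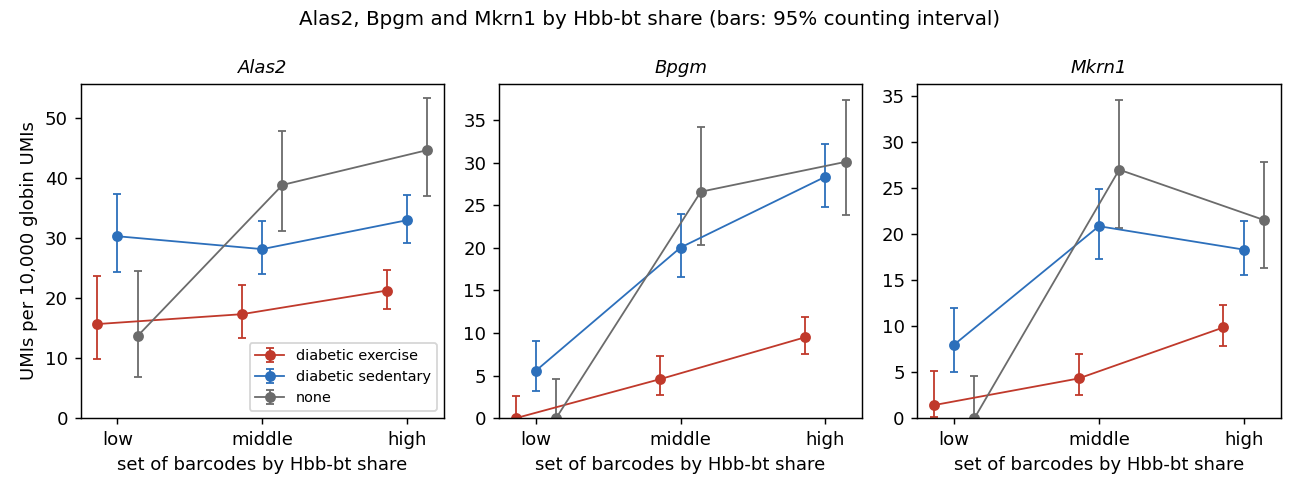
UMIs of Alas2, Bpgm and Mkrn1 per 10000 globin UMIs (y axis) in barcodes divided into low, middle and high sets by Hbb-bt share (x axis), with points by group and bars for the 95% Poisson interval. Bpgm is 0 in the low sets of diabetic exercise and none, and diabetic exercise is the lowest of the groups in the high set of each gene.

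The comparison of erythroid with other barcodes of the same library asks what else these barcodes carried. The globin genes that chose the members were left out of the fit and of the totals. This fit, edgeR's quasi-likelihood test with library as a block, describes the members over 3 libraries of different groups. A gene entered if it was abundant enough in the sums of either kind of barcode. A gene rare in the other barcodes, of an erythroid list or not, could enter only where it was high in erythroid barcodes. No count of erythroid list genes is therefore given as support, and most genes of those lists were not tested. In the same way, a gene rare in erythroid barcodes could enter only where it was high in the other barcodes. The counts of higher and lower genes below include genes that entered in these ways. Of 343 genes tested, 64 were higher (18.7%) and 17 lower (4.96%) at a false discovery rate of 0.05. A fit with edgeR's default filter, run first, tested 12272 genes and called 119 higher and 103 lower. In simulated data that fit recovered 10 of 50 genes raised by 2 on the log2 scale, and the filter used here 47 of 47. The raised genes were drawn from those passing each filter, so the default fit was scored on many rarer genes. These recoveries therefore do not rank the filters. The filter used here was adopted after the calls of the first fit had been seen.

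Of the haem synthesis list of 14 genes, 4 were tested. Fold changes of list genes rare in the other barcodes are description only, since the entry rule above let them in only where high. Alas2 was higher in erythroid barcodes, with a log2 fold change of 13.48. Slc25a37, the mitochondrial iron importer mitoferrin, was higher by 7.38, and Fech, which inserts iron into the haem ring, by 5.60. Of 24 genes of reticulocyte maturation, 11 were tested. Ube2l6, a ubiquitin-family conjugating enzyme, had a log2 fold change of 9.44, Bpgm had 7.83 and Mkrn1 had 6.75. Bnip3l, needed for removal of mitochondria, had 4.85. Bsg, the basigin gene, did not pass, at 0.45.

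Of 24 membrane and skeleton genes 3 were tested, and Epb41, the membrane skeleton protein 4.1, was higher in erythroid barcodes with a log2 fold change of 5.20 and Cd24a with 2.45. Of 12 redox and carbonic anhydrase genes 5 were tested, and Gpx1, glutathione peroxidase 1, was higher at 4.19 and Car2, carbonic anhydrase 2, at 6.27. Of 10 iron handling genes 3 were tested, and Ncoa4, the ferritin autophagy receptor, was higher at 4.78, Ftl1 at 1.78 and Fth1 at 0.73. Of the acinar list, 0 of 38 tested were higher and Dmbt1 (-0.86) and Gp2 (-0.70) were lower, and the list's median was 0.09 beside 0.02 for all tested genes. Genes outside these lists with the largest changes were Cdr2 at 6.01, March2 at 5.76, Fam213a at 5.13, Isca1 at 4.94 and Ccndbp1 at 4.83. These genes were rare in the other barcodes and could enter only where high in erythroid barcodes, so their values are description too. Ins1 (-5.91), Ins2 (-2.98), Dcn (-3.56) and Igkc (-3.82), genes of islet, fibroblast and B cells, were lower. By the entry rule, genes this rare in erythroid barcodes could enter only where high in the other barcodes. Their values are therefore description as well.

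Genes of erythroid precursors had few UMIs at this depth. A list of 14 genes of this lineage held transcription factors and Epor, the erythropoietin receptor gene. Of these, 0 reached 20 UMIs over the 3 libraries. The list had 7 UMIs in diabetic exercise, 18 in diabetic sedentary and 19 in none. In CPM, erythroid against other barcodes, it stood at 30.6 against 108 in diabetic exercise and 55.9 against 81.7 in diabetic sedentary. In none it stood at 106 against 77.2, higher in erythroid barcodes. Gata1, Tal1, Epor and Gfi1b had 0 UMIs, and Klf1 had 0, 0 and 3 UMIs in diabetic exercise, diabetic sedentary and none. The embryonic globins Hba-x, Hbb-bh1 and Hbb-bh2 had 0 UMIs, and Hbb-y had 1. In none, 70 of 93 UMIs of 15 cell cycle genes lay in 1 barcode. Ube2c, of that list, had a log2 fold change of 7.25 in the fit.

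Markers of other cells were rare in most members, but 5 barcodes held at least 10 UMIs of another cell type's marker list: 0 in diabetic exercise, 4 in diabetic sedentary and 1 in none. In diabetic sedentary, 1 barcode held 540 of the 541 neutrophil UMIs, and 1 held 425 of the 482 ductal UMIs. In none, 1 barcode held all 21 endothelial UMIs. T cell and mural markers were at 0 in all 3 libraries. These barcodes bear on comparisons between libraries. The counts of genes past 2-fold in CPM are therefore given with and without them.

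Between diabetic exercise and diabetic sedentary, 10 of 432 genes with at least 20 UMIs were at least 2-fold higher (2.31%) and 117 were at least 2-fold lower (27.1%), in CPM. Without the 5 barcodes above, 13 of 350 were higher (3.71%) and 43 lower (12.3%). Several of the lowest ratios rested on 1 barcode: Fabp4, a fatty acid binding protein, had 0 UMIs in diabetic exercise and 229 in diabetic sedentary, of which 204 were in 1 barcode. S100a9, a neutrophil protein, had 0 and 193, of which 192 were in 1 barcode. Reg3a, a secreted lectin, had 1 and 30 UMIs, spread over 23 barcodes in diabetic sedentary. In the other barcodes Reg3a stood at 58.5 CPM in diabetic exercise against 236 CPM in diabetic sedentary, and the part of this in the result was not tested. Among the highest, Slc25a37 had 128 UMIs in diabetic exercise against 103 in diabetic sedentary, with a CPM ratio of 1.75 (1.34 to 2.29), and Pabpc1, a poly(A)-binding protein, had 194 and 166, a ratio of 1.65 (1.33 to 2.04).

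Of 7 erythroid lists, 5 held genes with enough UMIs, and their median log2 ratios were below 0 in diabetic exercise over diabetic sedentary. The median of all genes was -0.37 on the same scale, and without the 5 barcodes it was -0.08. Of 14 reticulocyte maturation genes with enough UMIs, 5 were at least 2-fold lower and 0 at least 2-fold higher, with a median log2 ratio of -0.76. Without the 5 barcodes the count was again 5 of 14 and the median -0.84. Of all genes, 27.1% of 432 were at least 2-fold lower, and 12.3% of 350 without the 5 barcodes. Tent5c, a poly(A) polymerase, measured 617 CPM in diabetic exercise against 550 CPM in diabetic sedentary, a quotient of 1.12 (0.892 to 1.41). Of 4 membrane and skeleton genes, 1 was at least 2-fold lower in diabetic exercise, a share near that of all genes, and the median was -0.78. This gene, Slc4a1, had 5 UMIs in diabetic exercise against 19 in diabetic sedentary, with an interval of the ratio from 0.108 to 1.03.

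Of 7 redox genes, 4 were at least 2-fold lower in diabetic exercise, with a median of -1.08, and 5 of 7 without the 5 barcodes. The shares of all genes were 27.1% with the 5 barcodes and 12.3% without, for the redox and iron counts alike. Gpx1 measured 608 CPM in diabetic exercise against 1286 CPM in diabetic sedentary, a quotient of 0.473 (0.387 to 0.574). Prdx2, peroxiredoxin 2, measured 109 CPM against 317 CPM in the same groups, a quotient of 0.345 (0.213 to 0.539). Of 3 iron genes, 2 were at least 2-fold lower, and 0 without the 5 barcodes. Fth1, the ferritin heavy chain, had a ratio of 0.423 with them and 0.661 without, and 113 of its 313 UMIs in diabetic sedentary lay in 1 barcode. Ftl1, the ferritin light chain, had 0.499 with them and 0.520 without (0.424 to 0.634), just across the 2-fold line. Of 4 haem synthesis genes, 0 were past 2-fold in either direction, with a median of -0.33. Fech measured 262 CPM in diabetic exercise against 286 CPM in diabetic sedentary, a quotient of 0.918 (0.652 to 1.28).

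Between diabetic sedentary and none, 69 of 458 genes were at least 2-fold higher (15.1%) and 53 at least 2-fold lower (11.6%) in CPM. Without the 5 barcodes holding other cells' markers, 34 of 358 were higher (9.5%) and 74 lower (20.7%), so more genes were lower than higher. The median log2 ratio of all genes in CPM was -0.03 with the 5 barcodes and -0.43 without. Per globin UMI, with the 5 barcodes kept, the split was 38 (8.3%) and 178 (38.9%), and the median was -0.74. Changes of erythroid genes were therefore read on both scales. The list medians of the log2 ratio were 0.73 in CPM and 0.02 per globin UMI for reticulocyte maturation, 0.44 and -0.27 for haem synthesis, 0.55 and -0.17 for redox and 0.48 and -0.23 for iron genes. For membrane and skeleton genes they were -0.39 and -1.11, with 3 of 5 at least 2-fold lower per globin UMI. Slc4a1, the anion exchanger band 3, was lower on both, with 19 UMIs in diabetic sedentary and 27 in none, a ratio of 0.390 (0.205 to 0.728), and 15 of the UMIs in none lay in 1 barcode. Without the 5 barcodes the list medians in CPM were 0.57 for reticulocyte maturation, 0.52 for haem synthesis and 0.61 for redox genes. They were 0.405 for iron genes and -0.49 for membrane and skeleton genes. Mt1 and Mt2, metallothioneins that bind metal ions, had ratios of 0.196 (0.159 to 0.239) and 0.142 (0.0684 to 0.271), with 134 UMIs in diabetic sedentary against 380 in none for Mt1 and 12 against 47 for Mt2. The other barcodes differed in the same direction, with Mt1 at 1024 CPM in diabetic sedentary against 3246 in none and Mt2 at 131 against 598, and acinar RNA was 32.2% against 55.6% of the erythroid sums. The part of these in the result was not tested. S100a9, Retnlg and S100a8 had 0 UMIs in none, and all but 1 of their UMIs in diabetic sedentary lay in 1 barcode.

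Between diabetic exercise and none, 24 of 327 genes were at least 2-fold higher (7.34%) and 79 at least 2-fold lower (24.2%) in CPM, and per globin UMI these were 4.89% and 67%. Without the 5 barcodes, 24 of 325 were higher (7.4%) and 77 lower (23.7%) in CPM. In CPM, Bpgm had a ratio of 0.517 (0.394 to 0.675), Mkrn1 0.638 (0.483 to 0.840) and Alas2 0.916 (0.762 to 1.10). Per globin UMI these ratios were 0.290 (0.221 to 0.379), 0.358 (0.271 to 0.471) and 0.514 (0.428 to 0.618), so the interval of Alas2 held 1 in CPM and lay below 1 per globin UMI. This comparison shares its libraries with the ones above and adds no independent support to them.

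**Figure D4:**
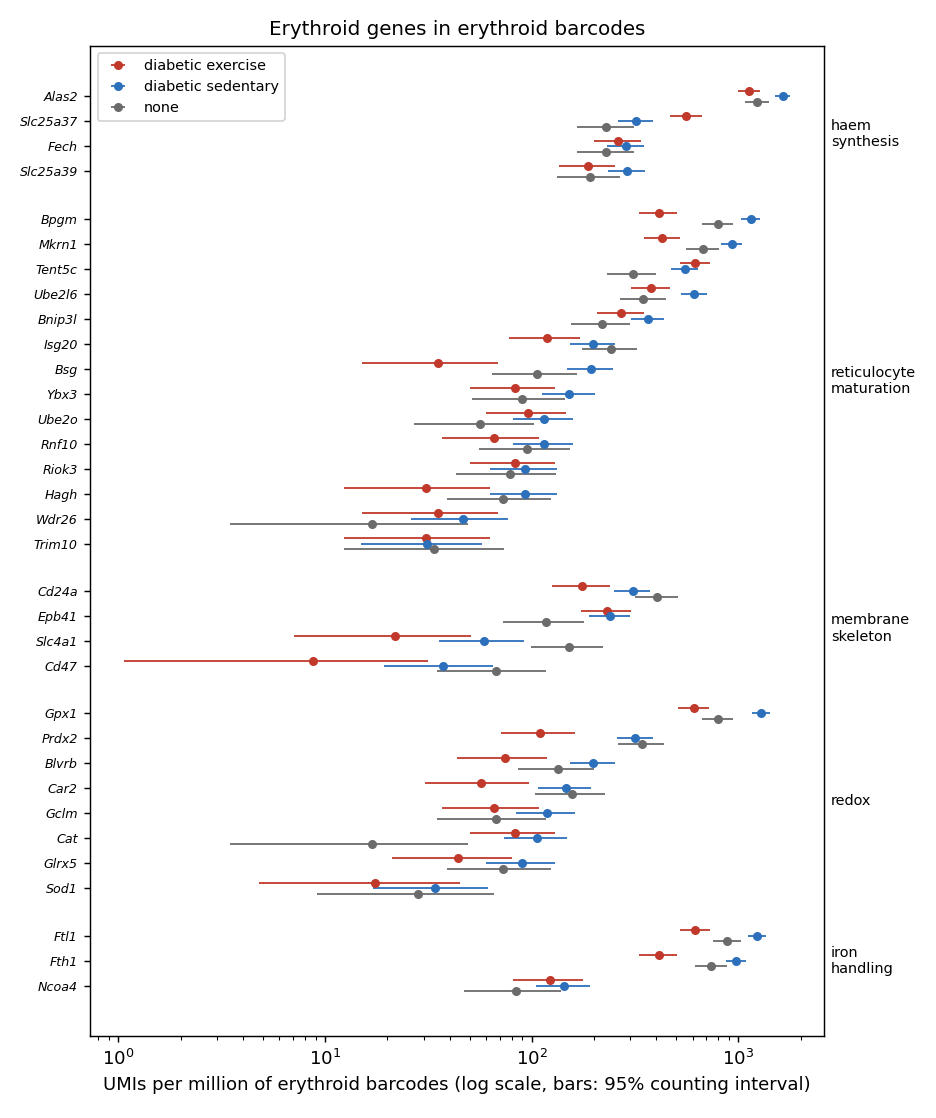
CPM in erythroid barcodes (x axis, log scale) for genes from 5 erythroid lists, chosen from those with at least 20 UMIs over the 3 libraries, by group, with bars for the 95% Poisson interval. Bpgm stands at 411, 1149 and 795 CPM in diabetic exercise, diabetic sedentary and none, while Slc25a37 is highest in diabetic exercise.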

How the data were processed

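Single-cell RNA of dissociated pancreas was measured in 3 libraries, 1 per group. The authors deposited UMI counts per gene and barcode, whole numbers without normalization, made with Cell Ranger (7.1.0 per the submitters' processing notes, 6.1.2 per the file headers). No source used here names the genome build. All 55450 gene identifiers and symbols match GENCODE M21, from which positions are given.

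The members, gene lists and thresholds were chosen with earlier results of these data known. Levels are CPM (UMIs per 1000000 UMIs of the erythroid barcodes) with exact Poisson intervals, shares have exact (Clopper-Pearson) 95% intervals, and ratios have exact conditional intervals. The interval of a difference between shares combines the exact intervals of both shares. Intervals on UMIs treat them as independent, though many come from the same barcode. A count of 0 allows up to 3 counts. With 1 library per group, no p-value was computed between groups, and a gene counts as past 2-fold by its ratio, with at least 20 UMIs over both libraries and 0.5 added to each count. Doublets were not called.

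Erythroid and other barcodes were summed per library and fitted with edgeR 4.0.16 (R 4.3.3), with TMM scaling, library as a block and Benjamini-Hochberg adjustment. The planned filter, filterByExpr, was first run at its default. Tested on simulated data, that fit recovered 10 of 50 genes raised and 9 of 49 lowered by 2 (log2), and called 26 of 12152 unchanged genes. The minimum was then rescaled to be worth 10 UMIs in the smallest sum, after the first calls had been seen. In simulated data the new fit recovered 47 of 47 raised and 45 of 45 lowered, with 5 of 421 unchanged genes called. The changed genes were drawn from those passing each filter, so the recoveries are of different genes and do not rank the filters. DESeq2 was an alternative. The named genes are the globins, Alas2, Bpgm, Mkrn1, erythroid-list genes with at least 20 UMIs, the 15 largest changes outside the lists, and the 10 highest and lowest ratios between libraries (of genes with at least 20 UMIs where higher, without mitochondrial, ribosomal protein and acinar genes). Other genes named were chosen after their values were seen, as were the sets by Hbb-bt share, the strata of globin and the leaving out of 5 barcodes. Python 3.11.15, numpy, scipy, pandas and matplotlib were used. Some genes of the lists are counted in them but not reported here by name.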

Additional observations from a re-analysis of the deposited data

Results flagged for a closer look

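Bsg, which encodes basigin, lay on different sides of the other barcodes in different libraries: its log2 ratio of erythroid over other barcodes was -1.30 in diabetic exercise, 1.21 in diabetic sedentary and 0.44 in none. This difference between libraries was not tested. In diabetic sedentary 37 of its 62 UMIs lay in 1 barcode.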

How the results depend on the processing

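With 1 library per group, none of the values between groups has an error across animals, and the UMIs of 56 to 95 barcodes a library limit rare transcripts. The alpha share was higher in diabetic exercise than in diabetic sedentary by 10.0 to 10.8 percentage points, against 10.6, under the alternatives run other than the ceiling of 10% acinar: 10.2 at a globin threshold of 50% and 10.0 with at least 200 genes. Under 10% acinar, 6 barcodes of diabetic exercise stand against 1 of diabetic sedentary and 0 of none. That 1 barcode, of 3417 genes and 8.07% acinar, is among the 5 that hold other cells' markers, so values there (14.03 points for alpha) say nothing of the groups. The summed acinar difference between these groups changed in size and sign, and the medians over barcodes differed the other way (34.4% in diabetic exercise, 27.0% in diabetic sedentary). It was -2.85 points, and -10.4, 0.482 and -0.485 at thresholds of 5%, 20% and 50%, -3.22 with at least 1000 UMIs, -4.09 with a mitochondrial ceiling of 10%, -5.89 with at least 200 genes, -1.44 under 10% acinar and -4.61 without the 5 barcodes holding other cells' markers. Between diabetic sedentary and none it was -23.4, and -18.2, -20.3 and -13.6 at those thresholds, -20.2 with at least 200 genes and -21.9 without the 5 barcodes.

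The share of erythroid barcodes in diabetic exercise over diabetic sedentary, 0.647, became 0.455 with at least 200 genes, 4.19 under 10% acinar and 1.15 over acinar-poor barcodes. In diabetic sedentary over none, 1.35 became 7.85 at 50% globin and 0.847 with at least 200 genes. The ratios of Alas2, Bpgm and Mkrn1 in diabetic sedentary over none turned to 0.909, 0.875 and 0.559 at 50% globin, to 0.811, 0.882 and 0.843 per globin UMI and to 0.705, 0.769 and 0.738 with the other barcodes' profile subtracted. In diabetic exercise over diabetic sedentary they were 3.24, 12.5 and 1.10 under 10% acinar, and the Hbb-bt difference was 6.57 points, against that same 1 barcode. The Hba-a2 difference between diabetic exercise and none turned to -0.438 at 50% globin. The cause of the other changes was not tested.

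Genes past 2-fold in diabetic exercise over diabetic sedentary, 10 higher and 117 lower, were 5 and 37 with at least 50 UMIs a gene, 25 and 76 with TMM factors, and 43 lower without the 5 barcodes. In diabetic sedentary over none, 69 higher and 53 lower became 27 and 29 with at least 50 UMIs. They became 38 and 178 per globin UMI, and 34 and 74 without the 5 barcodes. With TMM factors 26 were lower.

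The erythroid over other fit depended on its filter: 64 higher and 17 lower became 119 and 103 at the default filter, of which 50 and 17 were shared, and 129 and 84 with none. They became 11 and 3 at 50% globin. The lower count was 41 at 20% globin, 31 with DESeq2 and 44 without the 5 barcodes. Leaving out each library in turn gave 66 to 86 higher and 15 to 37 lower: 26 lower without diabetic exercise and 37 without diabetic sedentary. Without the library as a replicate block, 47 were higher and 7 lower. No paired analysis was possible between groups because each had 1 library.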

Other observations

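Among barcodes left out for more than 20% mitochondrial UMIs, 2 of 588 in diabetic exercise, 0 of 285 in diabetic sedentary and 0 of 8 in none held at least 10% globin UMIs.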
